A study of Mus musculus with 11 samples.

Results

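The clustered protocadherins are a family of cell surface adhesion genes that lie side by side in the alpha, beta and gamma clusters. The members were chosen by gene name (Pcdha, Pcdhac, Pcdhb, Pcdhga, Pcdhgb or Pcdhgc followed by a number). This gave 58 of 55487 listed genes, of which 14 are alpha, 22 beta and 22 gamma members. Pcdha11 is listed under a pair of identifiers, both at 0 counts in every library, and both are among the 14.

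The libraries come from a study of FGF21 secreted by tumours and its effect on CD8+ T cells. They are 11 bulk RNA libraries from mouse tumours of MC38, a colon carcinoma line, whose cells carried a control hairpin (shNC, labelled wild type) or a hairpin against Fgf21 (shFgf21, labelled as an FGF21 knockdown). There are 3 shNC and 2 shFgf21 libraries of cells sorted from the tumours as T cells, and 3 of each hairpin labelled as tumours. All groups share the MC38 line as the tumour. Each title of a sorted library joins several animal-like numbers, and whether RNA or cells were pooled is not stated. The genotype label of shFgf21 sorted replicate 2 names FGF22, while its title matches that of replicate 1, and it is counted here as shFgf21. The tumour libraries carry both a tumour tissue label and the name of the line, with mesenchymal cell as the cell type. Neither the animals' age nor the number of hairpin clones is given in the labels. Nothing states that replicates came from separate animals, so the p-values reflect only how these libraries varied, which may be technical.

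Library totals ran from 14944013 to 19099350 counts, and a count of 0 allows up to 3 counts, or 0.157 to 0.201 CPM (counts scaled to library size), which covers counting error only. Fgf21, the targeted gene, had 0 to 2 counts in shNC tumours and 0 in all other libraries, so the knockdown could not be checked at this depth. The 10 T cell markers summed to 283 to 592 CPM in shNC sorted and 323 to 392 CPM in shFgf21 sorted libraries, beside 10529 to 12913 and 16637 to 18192 CPM of 10 macrophage markers. In the tumour libraries 5 general leukocyte markers summed to 2.55 to 6.76 CPM, and Cd3e, Cd8b1 and Cd2 were at 0 in all of them.

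Clustered protocadherins are known from neurons, where each cell is thought to switch on its own small set of members from alternative promoters, so that neighbouring cells carry different surface identities. In the alpha and gamma clusters each member has its own large first exon, which encodes the cadherin repeats that bind the same protein on another cell, and this exon is spliced to last exons that all members of the cluster share and that encode the common cytoplasmic end. Beta members are single-exon genes in the main and lack this common end. The architectural protein CTCF and the cohesin ring take part in the choice of promoter, and DNA methylation keeps unused promoters silent. The last members of the alpha and gamma clusters, called C-type, are regulated differently and are more constant between neurons.

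All members lie on the forward strand of mouse chromosome 18 (mm10). The alpha members span positions 36930184 to 37187661 (257.5 kb), the beta members 37264938 to 37524479 (259.5 kb) and the gamma members 37661793 to 37841873 (180.1 kb). In the GENCODE M21 annotation 2116 exon bases belong to every one of the 22 gamma members, and each has 1570 to 5508 exon bases of its own. The alpha members share 2860 exon bases. A read that lies wholly within such shared exons cannot be assigned to 1 member by its position, and counts may therefore move between listed genes. How the authors' counting treated such reads is not given in the sources used here. Of the beta members, Pcdhb21 and Pcdhb22 alone overlap each other, over 455 bases at 37517871 to 37518325.

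The 3 clusters differed in how much was detected. Alpha members were near absent, beta members were low and gamma members carried most of the family's counts. Alpha members had 26 counts in all 11 libraries together, 9 of the 14 were at 0 throughout, and none reached 10 counts in a library. The alpha C-type member Pcdhac2 had 3 counts in shNC sorted replicate 1, 1 in shNC tumour replicate 1, 2, 7 and 1 in the shFgf21 tumours and 0 in the other libraries. Pcdhac1, the other alpha C-type member, was at 0 in all 11. Among the alternate alpha members the highest count was 6, for Pcdha9 in shNC sorted replicate 2. No alpha member passed the filter on low counts in any comparison.

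Beta members summed to 430 to 1970 counts per library, with 15 of 22 reaching 10 counts in at least 1 library and 6 reaching it in all 11. Pcdhb1 was at 0 in every library. Gamma members summed to 2617 to 13120 counts, with 21 of 22 reaching 10 counts in at least 1 library and 8 in all 11. In bulk RNA, fewer cells that express a gene and less RNA per cell cannot be told apart.

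The gamma cluster showed an uneven pattern across replicates. In 10 of the 11 libraries 1 or 2 members held 1927 to 7086 counts each, and which members these were differed between replicates of 1 group. A member reached 1000 counts in 14 of 242 member and library pairs. The smallest of these values was 1927, while the largest value under 1000 was 946. The 6 members involved were Pcdhgc3, Pcdhga2, Pcdhga9, Pcdhgb4, Pcdhgb8 and Pcdhgb1. They were picked out by these values after they were seen, so what follows on them is a description with no test.

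**Figure D1:**
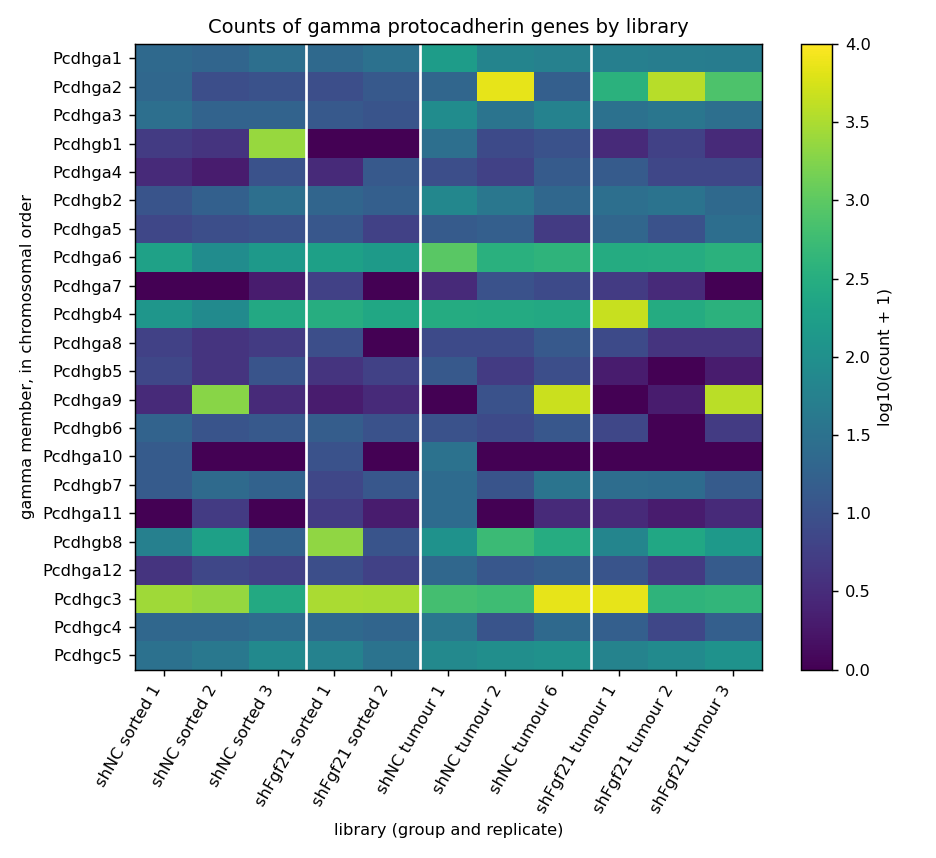
Counts of the 22 gamma members (vertical axis, in chromosomal order) in each of the 11 libraries (horizontal axis), coloured by log10(count + 1), with white lines between the 4 groups. Single bright cells at Pcdhga2, Pcdhgb1, Pcdhgb4, Pcdhga9 and Pcdhgb8 stand in 1 to 3 libraries each. Pcdhgc5 is of similar colour throughout, and Pcdhga6 is brighter in tumour libraries, most of all in shNC tumour replicate 1.

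Pcdhgc3 is a C-type gamma member known also from astrocytes and other cells that are not neurons. It had 2645, 2309 and 268 counts in shNC sorted replicates 1, 2 and 3, and 3146 and 3006 in the shFgf21 sorted replicates. In tumours it had 642, 562 and 7067 counts in shNC replicates 1, 2 and 6, and 7086, 393 and 429 in shFgf21 replicates 1, 2 and 3. It was thus at 2309 to 7086 counts in 6 libraries and at 268 to 642 in the other 5, and both levels occurred in 3 of the 4 groups.

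Pcdhga2, an alternate member encoded near the start of the cluster, had 8 to 21 counts in the 5 sorted libraries. Among shNC tumours it had 20, 7041 and 15 counts in replicates 1, 2 and 6, and among shFgf21 tumours 355, 3706 and 768 counts in replicates 1, 2 and 3. All 3 shFgf21 tumours were above every sorted library, whereas 2 of the 3 shNC tumours were level with the sorted libraries.

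Pcdhga9 had 1927 counts in shNC sorted replicate 2, 4710 in shNC tumour replicate 6 and 3875 in shFgf21 tumour replicate 3. In the remaining 8 libraries it had 0 to 9 counts. The 3 high libraries belong to 3 different groups.

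Pcdhgb4 had 80 to 365 counts in 10 libraries and 4659 in shFgf21 tumour replicate 1. Pcdhgb8, which the deposited table lists as a polymorphic pseudogene, had 2141 counts in shFgf21 sorted replicate 1 and 10 in replicate 2, with 17 to 530 counts in the other groups. Pcdhgb1 had 2418 counts in shNC sorted replicate 3 and 0 to 28 in the other 10 libraries. Each of these genes was therefore high in a single library.

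The members past 1000 counts made up 62.2% to 92.2% of the gamma counts in the 10 libraries that had one. shNC tumour replicate 1 had none, and Pcdhga6 led there with 946 counts. The other 16 gamma members together had 369, 259 and 389 counts in shNC sorted replicates 1 to 3, 391 and 305 in shFgf21 sorted, 1530, 644 and 759 in shNC tumour replicates 1, 2 and 6, and 569, 554 and 650 in shFgf21 tumours. In CPM, the highest and lowest of these sums differed 1.37-fold in shNC sorted, 1.33-fold in shFgf21 sorted, 3.21-fold in shNC tumour and 1.14-fold in shFgf21 tumour libraries. For the 6 members past 1000 counts these ratios were 1.71, 1.78, 8.81 and 2.44. The 16 are what is left once the members past 1000 counts are taken out, so a smaller spread follows in part from that choice.

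**Figure D2:**
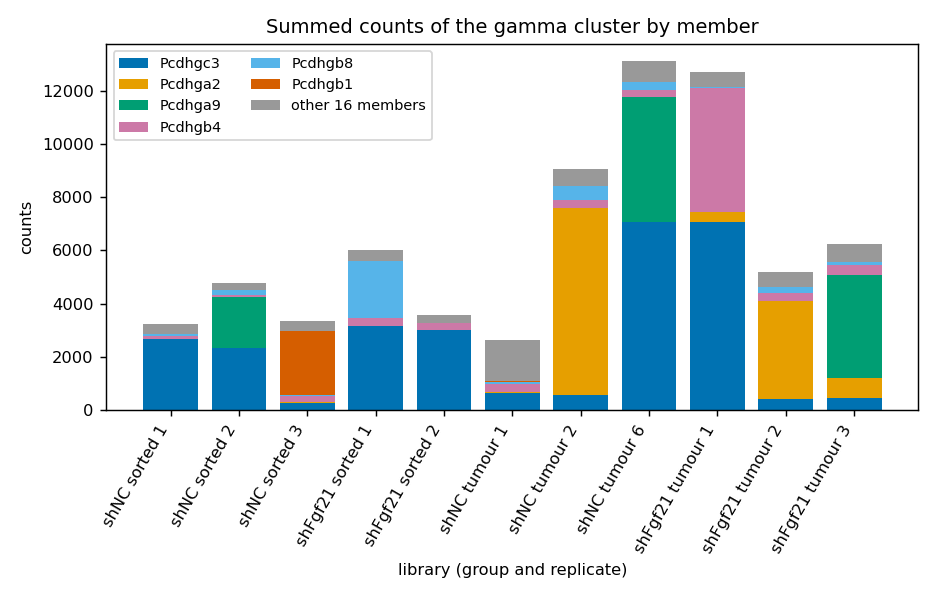
Summed gamma counts (vertical axis) in each of the 11 libraries (horizontal axis), with 1 colour for each of the 6 members that reached 1000 counts and grey for the other 16. The coloured blocks change from library to library within a group, from 2617 counts in all in shNC tumour replicate 1 to 13120 in replicate 6, while the grey block lies between 259 and 759 except for 1530 in shNC tumour replicate 1.

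Such spread between replicates was uncommon among all genes that reached 1000 counts in a library of their group. Of the genes with 1000 counts or more in at least 1 library of their group, the highest and the lowest library differed at least 3-fold in 0.923% of 3900 genes in shNC sorted, 0.215% of 3719 in shFgf21 sorted, 1.65% of 4840 in shNC tumour and 0.769% of 4292 in shFgf21 tumour libraries. The gamma members among them did so in 3 of 3, 1 of 2, 3 of 3 and 4 of 4 cases. Members such as Pcdhga9 and Pcdhgb1 reached 1000 counts in only 1 library of a group. Their spread follows from how they were picked, so these shares are a description and no test. The median ratio of highest to lowest over all such genes was 1.16, 1.09, 1.28 and 1.24. The part of reads from the shared last exons in these values was not tested.

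Other named gamma members stayed below 1000 counts in every library. Pcdhga6 had 88 to 192 counts in sorted libraries and 293 to 392 in tumours apart from the 946 named above. Pcdhgc5, a C-type member, had 30, 39 and 79 counts in shNC sorted, 58 and 32 in shFgf21 sorted, 76, 93 and 105 in shNC tumour and 61, 80 and 108 in shFgf21 tumour libraries. Pcdhgc4, the third gamma C-type member, which reaches the cell surface with the help of other members, had 19 to 25 counts in the sorted libraries, 38, 10 and 22 in shNC tumours and 15, 6 and 15 in shFgf21 tumours. The shFgf21 tumours lay below all sorted libraries, and the shNC tumours spread around them. Pcdhga10 was detected in single replicates, with 13 counts in shNC sorted replicate 1, 9 in shFgf21 sorted replicate 1, 31 in shNC tumour replicate 1 and 0 in the other 8 libraries.

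On a scale per length (FPKM, counts divided by gene length and library total), the 5 highest gamma members were Pcdhgc3 with a mean of 15.8 over the 11 libraries, Pcdhga2 with 13.2, Pcdhga9 with 7.27, Pcdhgb8 with 4.68 and Pcdhgb4 with 4.65. The order rests on the few high libraries: FPKM of Pcdhgc3 ran from 1.69 to 43.8, of Pcdhga2 from 0.112 to 78.6, of Pcdhga9 from 0 to 32.7, of Pcdhgb8 from 0.134 to 30.4 and of Pcdhgb4 from 0.641 to 32.9, so no neighbours in it differ beyond their spread. In 12 of the 22 gamma members the deposited FPKM divides by more than the exon bases of the annotation, which lowers their FPKM. The highest member held 42.3% to 82.3% of the summed gamma FPKM, and 6 different genes took that place: Pcdhgc3 in 4 libraries, Pcdhga9 and Pcdhga2 in 2 each, and Pcdhgb1, Pcdhgb8 and Pcdhga6 in 1 each.

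The beta cluster had a steadier order. Pcdhb17 was the highest member by FPKM in 9 libraries and Pcdhb5 in the other 2, and the highest member held 19.9% to 31.5% of the summed beta FPKM. Mean FPKM over the 11 libraries was 3.18 for Pcdhb17, 2.25 for Pcdhb5, 1.44 for Pcdhb16, 1.29 for Pcdhb20 and 1.11 for Pcdhb22. Over the 11 libraries the ranges overlapped, from 1.11 to 5.75 for Pcdhb17 and from 0.946 to 4.07 for Pcdhb5. The rank correlation of beta FPKM between pairs of libraries had a median of 0.8 within sorted, 0.81 within tumour and 0.84 between sorted and tumour libraries, over the 22 members. For gamma these medians were 0.65, 0.73 and 0.68, and 0.72, 0.86 and 0.75 over the 16 members that stayed below 1000 counts. The members of 1 library share its depth, and these values are given as a description.

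Pcdhb17 had 161, 134 and 127 counts in shNC sorted, 117 and 84 in shFgf21 sorted, 367, 512 and 389 in shNC tumour and 318, 199 and 317 in shFgf21 tumour libraries. Every sorted library lay below every tumour library. Pcdhb5 had 81, 68 and 98 counts in shNC sorted, 51 and 68 in shFgf21 sorted, 184, 275 and 190 in shNC tumour and 155, 134 and 156 in shFgf21 tumour libraries, again with no overlap between sorted and tumour libraries.

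Pcdhb16 had 90, 48 and 107 counts in shNC sorted, 71 and 69 in shFgf21 sorted, 145, 219 and 198 in shNC tumour and 116, 160 and 157 in shFgf21 tumour libraries. Pcdhb20 had 42, 34 and 76 counts in shNC sorted, 52 and 25 in shFgf21 sorted, 90, 182 and 110 in shNC tumour and 67, 76 and 94 in shFgf21 tumour libraries. For Pcdhb16 the sorted counts stayed below the tumour counts, while for Pcdhb20 shNC sorted replicate 3 was above shFgf21 tumour replicate 1 and level with replicate 2.

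**Figure D3:**
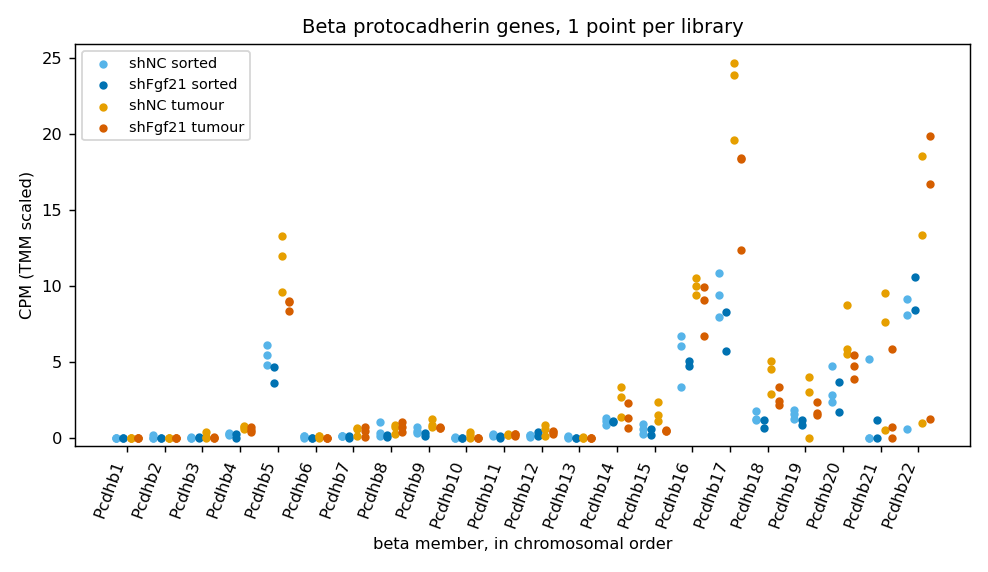
CPM of the 22 beta members (horizontal axis, in chromosomal order), with 1 point per library coloured by the 4 groups and CPM scaled by TMM on the vertical axis. Tumour libraries lie above sorted libraries for Pcdhb5 and Pcdhb17, and Pcdhb21 and Pcdhb22 have the widest spread within a group for their level.

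The overlapping pair at the end of the beta cluster varied more between replicates. Pcdhb21 had 0, 0 and 83 counts in shNC sorted, 17 and 0 in shFgf21 sorted, 117, 11 and 189 in shNC tumour and 0, 94 and 12 in shFgf21 tumour libraries. Pcdhb22 had 135, 115 and 9, then 149 and 123, then 205, 385 and 20, then 288, 20 and 344 counts in the same libraries. The 3 libraries with the fewest counts of Pcdhb22 (9 to 20) had 83 to 189 counts of Pcdhb21, and shNC tumour replicate 1 had 117 counts of Pcdhb21 and 205 of Pcdhb22. The pair's sum was 7.65 ± 1.72 CPM in shNC sorted (SD, n = 3), 10.1 ± 2.39 in shFgf21 sorted (n = 2), 16.8 ± 5.55 in shNC tumour (n = 3) and 14.8 ± 6.94 in shFgf21 tumour libraries (n = 3). Without Pcdhb21 and Pcdhb22 the median rank correlations of beta FPKM were 0.89, 0.91 and 0.9.

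**Figure D4:**
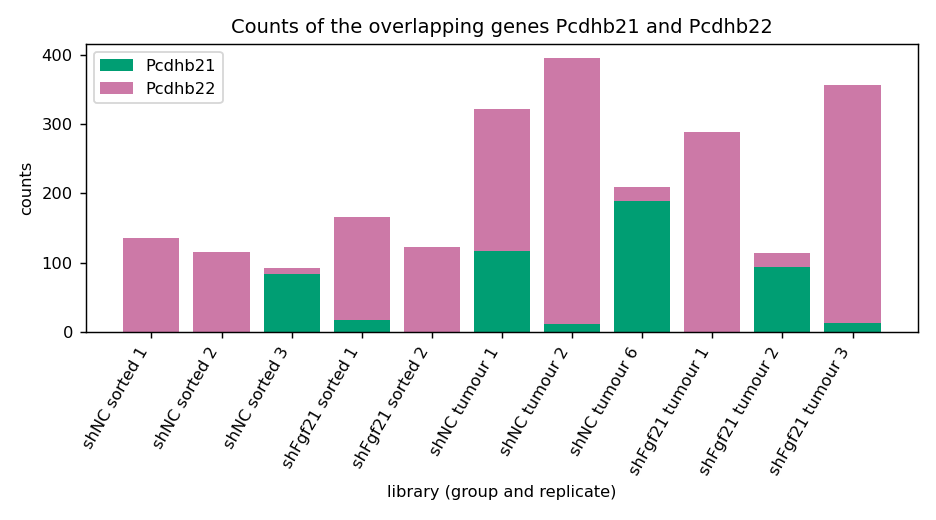
Counts (vertical axis) of the overlapping genes Pcdhb21 and Pcdhb22, stacked, in each of the 11 libraries (horizontal axis). Pcdhb21 makes up most of the bar in shNC sorted replicate 3, shNC tumour replicate 6 and shFgf21 tumour replicate 2, where Pcdhb22 has 9 to 20 counts.

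The comparison of sorted cells with tumour libraries showed lower beta levels in the sorted cells under both hairpins. Summed beta levels were 38.0 ± 3.48 CPM in shNC sorted (SD, n = 3) against 82.4 ± 13.3 in shNC tumour libraries (n = 3), a ratio of 0.460. With shFgf21 they were 33.2 ± 5.48 (n = 2) against 62.6 ± 10.9 CPM (n = 3), a ratio of 0.531. The 5 sorted libraries ran from 29.4 to 41.3 CPM and the 6 tumour libraries from 51.4 to 94.9 CPM, without overlap. Summed gamma levels overlapped, at 254 ± 70.4 CPM in shNC sorted, 423 ± 246 in shNC tumour, 335 ± 128 in shFgf21 sorted and 473 ± 229 in shFgf21 tumour libraries.

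In the shNC libraries 24 members were tested (12 beta and 12 gamma), and edgeR's quasi-likelihood test called 7 lower and 0 higher in sorted cells at an adjusted p under 0.05. Over all 16104 genes tested, 11.9% were called lower and 19.1% higher. The 5 beta members called were Pcdhb5, Pcdhb16, Pcdhb17, Pcdhb18 and Pcdhb20, and the 2 gamma members were Pcdhga1 and Pcdhga6. All 12 tested beta members had a negative log2 fold change, with a median of -1.05, and the median over all genes was -0.02. DESeq2 called 7 members. Pcdhb17 fell by 1.27 ± 0.18 (SE) on the log2 scale, from 22.7 ± 2.73 to 9.41 ± 1.47 CPM (SD, n = 3 each), with an adjusted p of 0.00109 by edgeR. Pcdhb5 changed by -1.08 ± 0.21 (adjusted p = 0.00534, edgeR). Pcdhb18, with 26, 18 and 19 counts in sorted against 70, 105 and 57 in tumour libraries, changed by -1.56 ± 0.33 (adjusted p = 0.00799, edgeR).

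Leaving out any 1 library, these 3 genes stayed past the threshold, with edgeR adjusted p of at most 0.0416. The other 4 did not. Members called lower, not always the same ones, numbered 3 without shNC sorted replicate 1, 4 without replicate 2 and 6 to 10 without any other library. Without shNC sorted replicate 1 or 2, Pcdhgb1 was called higher, and it was high in shNC sorted replicate 3 alone. Pcdhb16 (-0.89, adjusted p = 0.0384) had adjusted p of 0.0739 to 0.0888 without shNC sorted replicate 1 or 2 or shNC tumour replicate 2 or 6. Pcdhb20 (-1.01, adjusted p = 0.0495) had 0.0659 to 0.166 without any of the same 4 libraries. Pcdhga1 had 22, 19 and 28 counts in sorted and 160, 63 and 57 in tumour libraries and changed by -1.81 (adjusted p = 0.0368). Pcdhga6 changed by -1.79 (adjusted p = 0.0347). Without shNC tumour replicate 1, where both were highest, the log2 fold changes were -0.94 and -0.93, and without any 1 of the 3 sorted libraries the adjusted p was 0.0916 to 0.123 for Pcdhga1 and 0.0547 to 0.126 for Pcdhga6 (edgeR).

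In the shFgf21 libraries, which share no library with the shNC comparison, 24 members were tested (11 beta and 13 gamma), and edgeR called 8 lower and 0 higher in sorted cells. Over all 16229 genes tested, 13.1% were called lower and 22.7% higher. All 11 tested beta members had a negative log2 fold change, with a median of -1.06, against 0.01 over all genes. DESeq2 called 6 members. Pcdhb5 changed by -1.06 ± 0.23 (adjusted p = 0.00778, edgeR), Pcdhb17 by -1.20 ± 0.26 (adjusted p = 0.00876) and Pcdhb18 by -1.46 ± 0.40 (adjusted p = 0.0234). Without shFgf21 sorted replicate 1 the adjusted p of Pcdhb5 was 0.0758, and without replicate 2 that of Pcdhb17 was 0.0891, at log2 fold changes of -0.89 and -0.96. With 1 sorted library left, that library is assumed to vary like the tumour libraries, which give the spread. Pcdhb18 lost the call without shFgf21 sorted replicate 1 or 2 or shFgf21 tumour replicate 2, at edgeR adjusted p of 0.0557 to 0.196.

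Pcdhb16 (-0.79, adjusted p = 0.0391), Pcdhga3 (-1.25, adjusted p = 0.0365) and Pcdhga6 (-0.65, adjusted p = 0.0309) were also called by edgeR in the shFgf21 libraries. In all, 4 members were called lower without shFgf21 tumour replicate 2 or 3. Without shFgf21 tumour replicate 1, 8 members were called lower, and Pcdhgc3 was called higher. Each of the 3 lost the call without shFgf21 sorted replicate 1 or 2 or shFgf21 tumour replicate 2 or 3, with adjusted p of 0.0536 to 0.239. Pcdhb8 (-2.27, adjusted p = 0.0481) had 3 and 1 counts in sorted against 7, 17 and 12 in tumour libraries, and its adjusted p was 0.117 and 0.306 without either sorted replicate. Pcdhga2 changed by -7.10 ± 1.31 (adjusted p = 0.00391, edgeR), and by -5.51 without shFgf21 tumour replicate 2. It kept the call when any 1 library was left out, while a fit of all 4 groups gave an adjusted p of 0.0542. In the shNC libraries, where 1 of 3 tumours was high, its log2 fold change was -7.06 ± 2.34 (adjusted p = 0.0535).

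Pcdhb5, Pcdhb16, Pcdhb17, Pcdhb18 and Pcdhga6 were called in both comparisons, which is 71.4% of the 7 and 62.5% of the 8. Over all genes, those called lower in both were 64.3% of the 1917 called lower with shNC and 58.2% of the 2118 with shFgf21, so the members' shares were near those of all genes. Of 22 members tested in both, 19 had negative log2 fold changes in both, against 42.7% of 15713 genes. Pcdhgb8 had opposite signs, at -1.43 ± 0.78 in shNC and 3.12 ± 1.30 in shFgf21 libraries, neither past the threshold (edgeR adjusted p = 0.207 and 0.0977). In the shFgf21 libraries its sign depended on which sorted replicate was left out. The C-type members Pcdhgc3, Pcdhgc4 and Pcdhgc5 were not called in either comparison with all libraries kept. Pcdhgc3 had log2 fold changes of -0.25 ± 1.06 and 0.52 ± 1.05, Pcdhgc4 of 0.17 ± 0.54 and 1.03 ± 0.46, and Pcdhgc5 of -0.59 ± 0.34 and -0.62 ± 0.37.

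**Figure D5:**
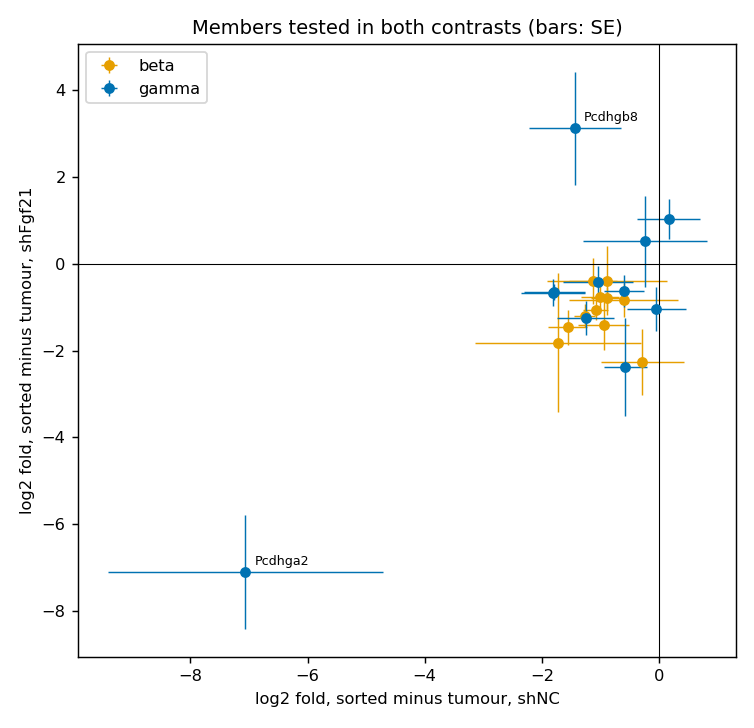
Log2 fold change of sorted against tumour libraries in shNC (horizontal axis) and shFgf21 libraries (vertical axis) for the 22 members tested in both, with beta in orange, gamma in blue and bars of 1 SE. Of the 22 points, 19 lie below 0 on both axes, Pcdhga2 lies near -7 on both with wide bars, and Pcdhgb8 has opposite signs.

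Cell type markers moved with this comparison. All 10 T cell and all 10 macrophage markers were called higher in sorted cells under both hairpins. Over all genes, 11.9% were called lower and 19.1% higher in shNC, and 13.1% lower and 22.7% higher in shFgf21 sorted cells. Of 10 fibroblast and mesenchymal markers, 4 were called lower and 1 higher in shNC sorted cells, and 3 lower and 5 higher in shFgf21 sorted cells. Their summed levels were 4136 to 5195 CPM in shNC sorted, 4375 to 4600 in shFgf21 sorted, 6072 to 8253 in shNC tumour and 4528 to 6318 in shFgf21 tumour libraries, with none of the 10 at 0 throughout a group. Neuron markers summed to 259 to 351 CPM over the sorted and 408 to 706 over the tumour libraries, with Snap25, Elavl4 and Map2 at 0 in all tumour libraries. Tubb3 alone of these 10 passed the filter on low counts, and it was at 297 ± 34.5 CPM in shNC sorted and 482 ± 64.9 in shNC tumour libraries. Schwann and glial markers summed to 68.3 to 91.8 and 101 to 125 CPM, with Sox10 and Foxd3 at 0 in all tumour libraries. The part of cell mixture in the lower beta levels was not tested.

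The knockdown comparison asks whether the hairpin against Fgf21 goes with other protocadherin levels in each kind of sample. No member passed the test in either. In sorted cells 21 members were tested (9 beta and 12 gamma), edgeR called 0, 2 had an unadjusted p under 0.05, and DESeq2 called 0. Over all 16454 genes, 0.079% were called. Of the 9 beta members 8 had lower levels with shFgf21, against 51.8% of all genes. Their median log2 fold change was -0.42, against -0.01 over all genes. Summed beta levels were 38.0 ± 3.48 CPM with shNC (n = 3) and 33.2 ± 5.48 with shFgf21 (n = 2), a ratio of 0.876. The gamma ratio was 1.32, but 0.960 without shFgf21 sorted replicate 1 and 0.893 without Pcdhgc3, settings chosen after seeing the data. Of the 10 macrophage markers, all had higher and of the 10 T cell markers 8 had lower levels with shFgf21, with median log2 fold changes of 0.61 and -0.47. Of these markers edgeR called 0, with 7 and 1 at an unadjusted p under 0.05, and DESeq2 called 7 and 0. Their part in the protocadherin values was not tested.

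The largest differences in sorted cells were those of Pcdhgb8, Pcdhgb4, Pcdhb21 and Pcdhgb7. Pcdhgb8 had a log2 fold change of 3.68 ± 1.46 (edgeR adjusted p = 0.411), which was -3.12 without shFgf21 sorted replicate 1. Pcdhgb4 had 125, 80 and 256 counts with shNC and 311 and 240 with shFgf21, a log2 fold change of 0.92 ± 0.38 (adjusted p = 0.426). Pcdhb21 had -1.57 ± 1.81 (adjusted p = 0.785), which ran from -7.73 without shFgf21 sorted replicate 1 to -0.56 without replicate 2. Pcdhgb7, with 13, 23 and 17 against 6 and 11 counts, had -1.01 ± 0.49 (adjusted p = 0.502). Pcdhga9 and Pcdhgb1 did not pass the filter on low counts, which asks for enough counts in as many libraries as the smaller group holds.

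In tumours 27 members were tested (14 beta and 13 gamma), edgeR called 0, 3 had an unadjusted p under 0.05, and DESeq2 called 0. Over all 14950 genes, 0.0334% were called. Of the 14 beta members 12 had lower levels with shFgf21, against 51.2% of all genes. Their median log2 fold change was -0.44, against -0.01 over all genes. Summed beta levels were 82.4 ± 13.3 CPM with shNC and 62.6 ± 10.9 with shFgf21 (n = 3 each), a ratio of 0.759. The fibroblast and mesenchymal marker sum was 6072 to 8253 CPM with shNC and 4528 to 6318 with shFgf21, ranges that overlap. Of 9 such markers tested, 8 had lower levels with shFgf21 and 6 an unadjusted p under 0.05 by edgeR. After adjustment edgeR called 0 and DESeq2 called 1. Their part in the beta levels was not tested.

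The largest fall in tumours was that of Pcdhb15, with 17, 49 and 30 counts with shNC and 8, 8 and 8 with shFgf21, a log2 fold change of -1.81 ± 0.41 (edgeR adjusted p = 0.430). The groups did not overlap, and the difference did not pass the adjustment over all genes. Pcdhb21 had -1.45 ± 1.24 (adjusted p = 0.923), and -4.06 without shFgf21 tumour replicate 2. Pcdhgb4 had 288, 276 and 257 against 4659, 288 and 365 counts, a log2 fold change of 2.77 ± 0.95 (adjusted p = 0.678), and 0.38 without shFgf21 tumour replicate 1. Pcdhga5, with 13, 15 and 4 against 20, 9 and 27 counts, had 0.90 ± 0.58 (adjusted p = 0.882). Pcdhb17 had -0.48 ± 0.20 (unadjusted p = 0.0411 and adjusted p = 0.783, both edgeR).

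Whether the hairpin effect differed between the kinds of sample was tested by an interaction term over all 4 groups. Of 32 members tested, edgeR called 0, 1 had an unadjusted p under 0.05, and DESeq2 called 0, while 0.00577% of 17327 genes were called. The member under 0.05 was Pcdhgb8, at 4.54 ± 1.77 on the log2 scale (unadjusted p = 0.0256, adjusted p = 0.99997), where shFgf21 sorted replicate 1 alone is high.

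Genes that work with the family, and its relatives among the other protocadherins and cadherins, were read from 5 lists. In the knockdown comparisons edgeR called none of their 65 tested genes in sorted cells and none of 62 in tumours, with 8 and 4 at an unadjusted p under 0.05, and DESeq2 called 2 and 0. The 2 were Cdh1, at 33.8 ± 6.47 CPM in shNC and 16.6 ± 1.88 in shFgf21 sorted cells, and Pcdh7, at 42.5 ± 12.8 and 76.3 ± 3.69 CPM (SD, n = 3 and 2).

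Between sorted and tumour libraries, 11.9% of all genes tested were called lower and 19.1% higher in shNC sorted cells. In shFgf21 sorted cells 13.1% were called lower and 22.7% higher. These shares are the background for the counts of this list and of those that follow. Of the 14 tested cohesin, CTCF and architecture genes 6 were called lower and 0 higher in shNC, and 6 lower and 1 higher in shFgf21 sorted cells. Rad21, which closes the cohesin ring, was at 363 ± 14.8 CPM in shNC sorted and 544 ± 105 in shNC tumour libraries (log2 fold change -0.58 ± 0.16, edgeR adjusted p = 0.0244). Smc3, another ring subunit, changed by -0.57 ± 0.12 (adjusted p = 0.00993). Smc1a, the third ring subunit, had -0.33 ± 0.11 (adjusted p = 0.0600), and Ctcf had -0.06 ± 0.12 (adjusted p = 0.725). In shFgf21 libraries the 4 log2 fold changes were -0.83 ± 0.15, -0.76 ± 0.14, -0.34 ± 0.11 and -0.11 ± 0.16, of which Rad21 and Smc3 were called.

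Of 15 tested genes of DNA methylation and silencing, 3 were called lower and 2 higher in shNC, and 3 lower and 3 higher in shFgf21 sorted cells. Trim28, a corepressor, had log2 fold changes of -0.40 ± 0.11 and -0.36 ± 0.11, both called. Dnmt1, the maintenance methyltransferase, had -0.23 ± 0.10 and -0.33 ± 0.13, neither called. Uhrf1, which brings Dnmt1 to newly copied DNA, had -0.39 ± 0.14 (edgeR adjusted p = 0.0623) and -0.50 ± 0.11 (adjusted p = 0.0108). Ehmt2, a histone methyltransferase, had -0.06 ± 0.10 and 0.12 ± 0.14, neither called.

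Of 19 tested signalling and processing partners, 4 were called higher and 3 lower in shNC, and 7 higher and 4 lower in shFgf21 sorted cells. Brk1, a subunit of the WAVE complex that the cytoplasmic ends of several protocadherins recruit, was higher by 0.58 ± 0.12 and 0.82 ± 0.17, both called. Marcks, an actin-associated membrane protein, had 0.42 ± 0.15 (edgeR adjusted p = 0.0729) and 0.72 ± 0.14 (adjusted p = 0.00486). Wasf2, another WAVE subunit, had 0.05 ± 0.10 and 0.30 ± 0.12, and the GTPase Rac1 had -0.09 ± 0.11 and -0.08 ± 0.13, none called.

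Non-clustered protocadherins and large relatives gave 3 called higher and 5 lower of 11 tested in shNC, and 4 and 4 of 12 in shFgf21 sorted cells. Fat1, a giant protocadherin, changed by -0.84 ± 0.19 and -0.69 ± 0.12 and Pcdh18 by -0.65 ± 0.18 and -0.94 ± 0.18, all called by edgeR. Pcdh7 had -0.81 ± 0.24 (adjusted p = 0.0381) and -0.43 ± 0.42 (adjusted p = 0.457), and Pcdh19 had -0.19 ± 0.19 and 0.08 ± 0.25, neither called. Of the classical cadherins 1 of 6 tested was called higher and 2 lower in shNC, and 3 higher and 2 lower of 5 in shFgf21 sorted cells. Cdh1 (E-cadherin) rose by 3.72 ± 0.20 and 2.28 ± 0.31. Cdh13 (T-cadherin) changed by -0.96 ± 0.10 and -0.90 ± 0.13 and Cdh2 (N-cadherin) by -0.75 ± 0.16 and -1.15 ± 0.19, all called by edgeR, and Cdh11 had -0.05 ± 0.65 (adjusted p = 0.963) and 1.28 ± 0.36 (adjusted p = 0.0267).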

How the data were processed

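Bulk RNA of 11 libraries was measured. The authors deposited gene counts as whole numbers and, per the file headers, FPKM values of the same libraries. Per the submitters' processing notes the genome build is mm10. For the aligner, counter, annotation and strandedness the sources used here give nothing. Genes that overlap, antisense ones included, can therefore not be told apart. The deposited FPKM equals the count divided by a gene length and the library total. Exon sharing was computed from GENCODE M21, which held all 58 members.

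Groups were taken from titles. Within each comparison, genes were kept by filterByExpr, scaled by TMM and tested on the deposited counts by the quasi-likelihood F-test of edgeR 4.0.16 in R 4.3.3, with Benjamini-Hochberg adjustment over all genes tested and a threshold of 0.05. Standard errors are the log2 fold change over the root of its F statistic. CPM values use TMM factors over the 11 libraries. FPKM was described, not tested. The tests were checked on simulated counts.

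The text names singly the 5 members per cluster with the highest mean FPKM that reach 10 counts, the C-type members, the 2 largest rises and falls per knockdown comparison, members called, and up to 4 genes per list. The members that reached 1000 counts, and further members given as examples, were chosen after their values were seen. Members and lists were chosen with earlier results of these data known. Alternatives were size factors by median ratio, low counts left unfiltered, the Wald test of DESeq2 1.42.0, all 4 groups in one fit, the title number as a replicate block and leaving out each library. Sequences of the members are not reported here.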

Additional observations from a re-analysis of the deposited data

How the results depend on the processing

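Of 219 recomputed values for 23 log2 fold changes of single members, 172 kept their direction and their side of the threshold. Another 45 kept the direction but lost the call, 1 gained a call and 1 reversed. The 23 include knockdown differences not called in the main fit, which had no call to lose. All 45 losses therefore fall among members called between sorted and tumour libraries, some in fits with 1 sorted library left. The value that reversed was that of Pcdhgb8 in the sorted knockdown comparison, at -3.12 without shFgf21 sorted replicate 1 and up to 4.997 without shNC sorted replicate 2. The number of genes called between hairpins in sorted cells was 13, and it was 1 with no filter on low counts, 216 with DESeq2, 1 with all 4 groups in one fit and 0 to 34 with 1 library left out. In tumours it was 5, then 110 with DESeq2, 26 with all 4 groups and 0 to 8 with 1 library left out. For the interaction it was 1, then 4 with no filter, 32 with DESeq2 and 0 to 4 with 1 library left out. No member was called in these comparisons with a library left out. Members called between sorted and tumour libraries numbered 7 with shNC (11 with all 4 groups, 4 to 10 with 1 library left out) and 8 with shFgf21 (5 with no filter, 4 with all 4 groups, 3 to 9 with 1 library left out). Genes called there numbered 4995 (3465 to 5581) and 5808 (2868 to 7052). The causes of these shifts were not tested.

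With the title number as a replicate block, 131 genes and 2 members (Pcdhgb4 at 2.16 and Pcdhgc3 at 1.59 on the log2 scale) were called between hairpins in tumours. Only numbers 1 and 2 occur under both hairpins, so shNC replicate 6 and shFgf21 replicate 3 do not inform this contrast. With shFgf21 against shNC, Pcdhgb4 had 4659 against 288 counts for number 1 and 288 against 276 for number 2. Pcdhgc3 had 7086 against 642 and 393 against 562. Deviations of same-numbered tumours correlated at 0.121 for number 1 and -0.227 for number 2 across 9698 genes. Those of tumours with different numbers correlated at -0.303 to 0.205. With only 2 shared numbers these values cannot decide on a pairing. The labels state none, and the numbers are not taken as one. No paired analysis was possible for the sorted libraries because each title joins several numbers, which do not match the other hairpin's titles one to one. Within a hairpin, some numbers in the sorted titles recur in tumour titles. Whether they mark shared animals is not stated, and the sorted against tumour comparisons treat their libraries as independent.

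Summed beta levels without Pcdhb17 were 28.6 and 26.2 CPM in shNC and shFgf21 sorted and 59.7 and 46.2 CPM in the tumour libraries. Summed gamma levels without Pcdhgc3 were 135 and 121 CPM in shNC and shFgf21 sorted and 281 and 320.3 CPM in the tumour libraries. Without the 6 members that reached 1000 counts, a choice made after seeing the data, they were 22.5, 24.3, 56.2 and 35.0 CPM in shNC sorted, shFgf21 sorted, shNC tumour and shFgf21 tumour libraries. Depth limits the alpha members, which cannot be compared at these counts, and the beta members below 10 counts.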

Other observations

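Within 500 kb of the clusters 71 other genes are listed, 28 of them inside the span of the clusters. Taf7, a general transcription factor subunit whose gene lies between the beta and gamma clusters at 37640491 to 37644204 of chromosome 18, had 602, 441 and 534 counts in shNC sorted, 574 and 618 in shFgf21 sorted, 433, 275 and 499 in shNC tumour and 418, 410 and 452 in shFgf21 tumour libraries. Diaph1, a formin that begins past the end of the gamma cluster, had 2301 to 3387 counts in all 11. The counts of these 2 genes differed by less than 3-fold between any libraries. Diaph1 was still called higher in sorted than in tumour libraries under both hairpins. Its log2 fold changes were 0.63 ± 0.13 with shNC (edgeR adjusted p = 0.00643) and 0.41 ± 0.12 with shFgf21 (adjusted p = 0.0265). Taf7 had 0.66 ± 0.27 with shNC (adjusted p = 0.101) and 0.74 ± 0.14 with shFgf21 (adjusted p = 0.00424). BC037039, listed at 37805718 to 37807922 and overlapping the start of Pcdhgc3, had 28, 69 and 127 counts in shNC sorted, 25 and 30 in shFgf21 sorted, 252, 165 and 85 in shNC tumour and 117, 148 and 156 in shFgf21 tumour libraries. Without known strandedness its reads cannot be told apart from those of Pcdhgc3. Gm42416, Gm37013 and Gm37388, listed as genes that span from the alpha into the gamma cluster, were at 0 in every library.

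Of the neighbours, 33 were tested between hairpins in sorted cells and 34 in tumours. edgeR called 0 in both, 2 and 3 had an unadjusted p under 0.05, and DESeq2 called 0 in both. Between sorted and tumour libraries 3 of 33 were called higher and 3 lower with shNC, and 6 of 34 higher and 4 lower with shFgf21. Over all genes, 19.1% were called higher and 11.9% lower with shNC, and 22.7% higher and 13.1% lower with shFgf21. The neighbours had median log2 fold changes of 0.16 and 0.14. The tested beta members of the same region had medians of -1.05 and -1.06. BC037039 changed by -0.95 ± 0.59 with shNC (edgeR adjusted p = 0.265) and by -2.09 ± 0.28 with shFgf21 (adjusted p = 6.3e-04).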
